A study of Mus musculus with 33 samples.

Results

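The BMP, activin and TGF-beta pathway is described here as 38 genes of the mouse, looked up by symbol in a table of RNA counts that held 24391 genes. All 38 were found, and 0 of them lay on the X chromosome. They were grouped by role as 6 BMP ligands, 6 activin, GDF and TGF-beta ligands, 5 type I and III receptors, 4 type II receptors, 5 receptor and common SMADs, 3 intracellular or membrane inhibitors (Smad6, Smad7 and Bambi), 3 secreted antagonists and 6 target genes. The rule that picked them uses gene names and no measured value, but the list was chosen with earlier results of these data known.

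RNA was measured in mouse embryonic stem (ES) cells of the labelled strain CAST/Ei x 129/Sv/Jae in 2 lines, RepB and WT, at days 0, 5, 6, 7, 8 and 10 of differentiation. RepB is named after Repeat B of Xist, the noncoding RNA that coats and silences an X chromosome in female cells. The labels do not describe the edit, and WT is labelled wildtype. Day 0 was the undifferentiated state of each line, and days 5 to 10 were compared with it. Both lines were grown with LIF on irradiated embryonic fibroblasts (MEF feeders), which were taken out before the cells formed embryoid bodies in suspension. The bodies were placed on gelatin at day 4. Each line had 1 library of polyA RNA at each day, so there were no replicate cultures. Each p-value below therefore reflects the steadiness of a difference along a single course per line and does not extend to other cultures or clones. The other 21 samples of the series were not analysed here.

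Ligands of this superfamily bind pairs of type I and type II receptor kinases. The receptors then phosphorylate SMAD proteins, Smad1 and Smad5 for most BMPs and Smad2 and Smad3 for activins, Nodal and TGF-betas, and these enter the nucleus together with Smad4. Secreted antagonists, inhibitory SMADs and the pseudoreceptor Bambi limit the signal, and several of them are induced by it. In mouse ES cells BMP signalling keeps Id genes expressed and helps to sustain self-renewal, and in the early embryo Bmp4 and Nodal are needed to form mesoderm.

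The RepB libraries held 3594551 to 15231930 counts and the WT libraries 7763633 to 17773138, and over days 5 to 10 WT libraries were 2.07 to 3.35 times deeper. Levels are given as CPM, the count of a gene relative to the total of its library, and 3 counts correspond to 0.169 to 0.835 CPM over the 12 libraries. The WT library of day 8 stood apart by the length of genes. At day 8 the median log2 RepB/WT was -0.32 in genes with at most 1954 bases of exon and 0.215 in those with at least 4594 bases, a gap of 0.535, whereas on the other days the gap lay between -0.233 and 0.06. Set against the mean of days 7 and 10 in its own line, day 8 had a gap of -0.14 in RepB and -0.744 in WT. The 5 ES cell markers summed to 4219, 2735, 1988, 848.3, 463.8 and 339.3 CPM in RepB and to 3780, 2077, 1559, 640.5, 366.6 and 206.7 CPM in WT, in order of day. The 10 fibroblast and feeder markers summed to 1039, 65.7, 167.4, 973.9, 3144 and 13800 CPM in RepB and to 937.5, 82.5, 139.5, 742.5, 1581 and 9276 CPM in WT. The sum of this second list was thus high at day 0, low at day 5 and highest at day 10 in both lines. Not every marker followed it. In the edgeR test against day 0 described below, 1 of the 10 passed, Thy1, which was lower (log2 -2.92, adjusted p = 0.00148). In the slope test over days 5 to 10, 7 of 8 tested passed as rising and 1, Thy1, as falling. No marker of either list was at 0 in all 10 differentiating libraries. Over days 5 to 10 the summed markers of early mesoderm (6 of 7 found, Foxf1a not) ranged over 384.3 to 1624 CPM in RepB and 163.4 to 1532 CPM in WT. The ranges were 16.5 to 185.8 and 14.7 to 390.9 CPM for cardiac muscle, 6.04 to 359.1 and 4.05 to 154.7 CPM for visceral endoderm, 61.5 to 312.2 and 85.3 to 328.2 CPM for neural ectoderm, 326.4 to 2551 and 304.6 to 2363 CPM for smooth muscle, and 229.2 to 2227 and 294 to 2431 CPM for trophoblast, each with RepB before WT. In these bulk samples fewer cells of a type and less RNA per cell cannot be told apart.

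The promoters of the Id genes are shown because Id1, Id2 and Id3 are the classic transcriptional targets of BMP SMADs and were among the members with the highest levels per kilobase. Each window holds 250 bases before and 50 bases after the start of the gene, 5′ to 3′ on the gene's strand, from RefSeq on GRCm38.p6. Capitals mark GGCGCC, a GC-rich string of the kind that BMP SMADs bind, which reads the same on both strands, and CAGAC or its complement GTCTG, which contain the SMAD-binding element. Id1 was not in the table.
Id2, chr12:25096043-25096342, minus strand: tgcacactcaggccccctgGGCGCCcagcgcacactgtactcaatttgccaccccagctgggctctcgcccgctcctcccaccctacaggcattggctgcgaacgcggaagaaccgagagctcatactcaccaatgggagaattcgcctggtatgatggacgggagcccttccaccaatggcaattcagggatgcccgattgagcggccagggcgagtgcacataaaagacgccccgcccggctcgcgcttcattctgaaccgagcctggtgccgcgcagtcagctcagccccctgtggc
Id3, chr4:136143572-136143871, plus strand: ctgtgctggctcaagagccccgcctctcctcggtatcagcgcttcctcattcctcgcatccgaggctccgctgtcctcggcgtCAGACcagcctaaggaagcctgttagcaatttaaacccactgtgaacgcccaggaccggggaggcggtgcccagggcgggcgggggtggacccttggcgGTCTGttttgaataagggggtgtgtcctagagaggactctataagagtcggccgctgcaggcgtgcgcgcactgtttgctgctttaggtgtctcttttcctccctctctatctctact
Id4, chr13:48260866-48261165, plus strand: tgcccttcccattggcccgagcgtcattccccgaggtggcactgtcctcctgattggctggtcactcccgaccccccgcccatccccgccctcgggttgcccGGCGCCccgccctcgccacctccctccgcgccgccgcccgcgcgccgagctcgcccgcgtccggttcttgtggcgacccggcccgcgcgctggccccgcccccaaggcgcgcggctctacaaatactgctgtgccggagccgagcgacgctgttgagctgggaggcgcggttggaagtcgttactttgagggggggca
The Id2 and Id4 windows each held 1 GGCGCC and 0 CAGAC on either strand, and the Id3 window held 0 GGCGCC and 2 CAGAC, 1 on each strand. Over all 32851 promoter windows of this length in the table, 11.9% held GGCGCC and 49.6% held CAGAC on either strand. Of 29 windows that belonged to 26 of the 38 members, 9 (31%) held the first string and 11 (37.9%) the second. These are matches of letters in a window and say nothing of binding.

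Most members had their highest level at day 7 or later. The highest CPM fell on day 0 for 7 members in RepB and 8 in WT, on day 6 for 1 in RepB and 1 in WT, and on day 7 for 6 in RepB and 3 in WT. It fell on day 8 for 10 in RepB and 9 in WT, and on day 10 for 14 in RepB and 17 in WT. For no member was it day 5, and the highest days of all genes were not counted. For 30 members the highest day was the same in both lines, and the other 8 were Bmp2, Bmpr2, Acvr1b, Acvr2a, Tgfb1, Smad2, Smad4 and Nog. Per kilobase of exon (RPKM, the CPM divided by exon length), Id3 had the highest mean over the 12 libraries at 112.7, followed by Id1 at 95.2, Bmp4 at 82.3, Id2 at 60.0, Msx2 at 52.8 and Tgfb1 at 52.5, and Inhbb had the lowest at 0.716. Only 4 members had any library at or under 3 counts, namely Bmp5 in 4 libraries, Inhbb in 6, and Bmp6 and Grem1 in 1 each.

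**Figure D1:**
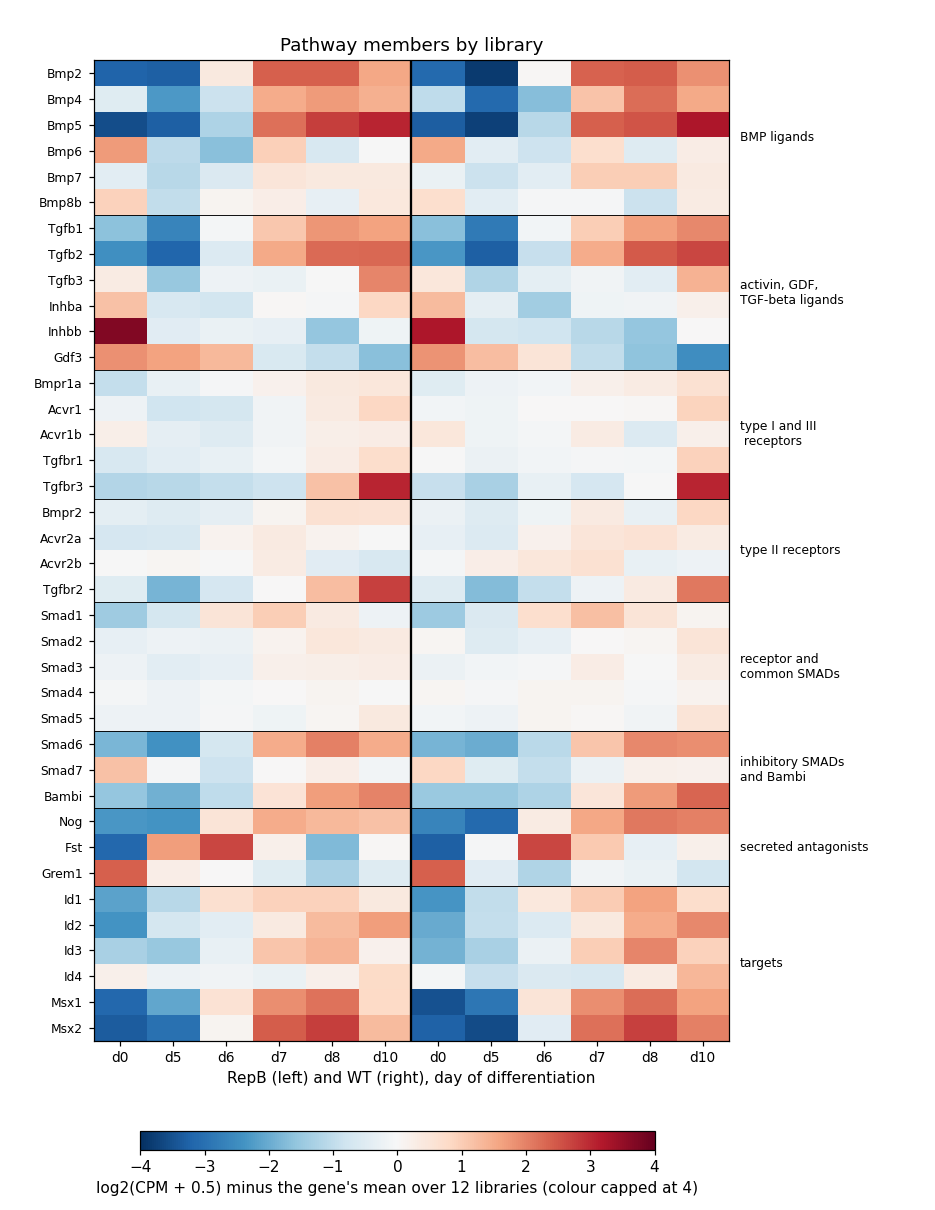
Level of the 38 members in each library, as log2(CPM + 0.5) less the gene's mean over the 12 libraries, with genes grouped by role down the page and RepB (left block) and WT (right block) by day along it. Blue is below and red above the gene's own mean, colours stop at 4, and 1 square is 1 library. The columns of equal day look alike in the 2 blocks, and 30 of 38 members have their highest day in common.

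The course itself was described by 2 comparisons, and in both the libraries of the 2 lines entered together. RepB and WT libraries of the same day counted as separate repeats in both, although they share that day. The p-values and SEs of both may therefore be too small. In the comparison of days 5 to 10 with day 0 (edgeR quasi-likelihood test, line as covariate, Benjamini-Hochberg adjustment over all genes, threshold 0.05), 11 of 38 members passed, 28.9%, where 29.2% of all 15179 genes tested passed, so the share was that of the background. Of these, 6 were higher, against 14.0% of all genes, and 5 were lower, against 15.2%. Without adjustment 21 members had p under 0.05, where 41.9% of all genes did. The median log2 change of the members was 0.68 and that of all genes 0.07. In the test of the slope per day over days 5 to 10, 23 of the 37 members tested passed, against 54.5% of 12948 genes. Here 22 rose, 59.5% of the members tested, against 27.9% of all genes, and 1 fell, 2.7%, against 26.6%. Without adjustment 29 of 37 had p under 0.05, where 59.8% of genes did. The median slope was 0.30 log2 units per day for the members and 0.00 for all genes. The list was chosen with earlier results of these data known, so these shares describe the listed members alone. Of 44 other genes of the pathways tested for slope, 36.4% rose and 22.7% fell. Inhbb was too low to enter the slope test.

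Among the BMP ligands, Bmp4, the member of the family that patterns the early embryo, was the most abundant per kilobase. In order of day 0, 5, 6, 7, 8 and 10, an order kept for every list of 6 values below, Bmp4 had 67.5, 18.7, 51.6, 265.3, 307.1 and 252.8 CPM in RepB and 45.9, 10.4, 28.9, 208.5, 440.6 and 270.8 CPM in WT. It was lowest at day 5 in both lines and above 200 CPM from day 7. Its slope was 0.95 ± 0.27 log2 units per day (SE, adjusted p = 0.0116), while its change against day 0, log2 1.80 ± 1.31 (SE, adjusted p = 0.315), did not pass, and its levels at day 0 lay inside the range of the later days. The slope missed the threshold without day 5 (adjusted p = 0.138) and without day 6 (adjusted p = 0.0717).

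Bmp2, its closest relative, had 1.58, 1.51, 24.5, 100.7, 100.4 and 55.3 CPM in RepB and 1.72, 0.844, 19.4, 97.8, 101.4 and 67.8 CPM in WT. It was at most 1.72 CPM in the 4 libraries of days 0 and 5 and at least 19.4 CPM in the 8 later ones. That split was drawn after these values were seen, and the share of all genes that separate in this way was not counted. Its change against day 0 was log2 5.18 ± 1.83 (SE, adjusted p = 0.0517), just outside the threshold, and adjusted p was 0.0017 when day 5 was left out. Bmp5 had 0.0657, 0.189, 2.29, 29.6, 44.5 and 54.2 CPM in RepB and 0.178, 0, 2.57, 34, 37.6 and 61.3 CPM in WT. Its values at days 0 and 5 rest on 0 to 3 counts a library, so no ratio to day 0 is read. Its slope, 1.21 ± 0.32 log2 units per day (SE, adjusted p = 0.00807), starts from 1 count in RepB and 0 in WT at day 5, so its size is uncertain, and it missed the threshold without day 6 (adjusted p = 0.0521).

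Bmp6, a BMP ligand with low levels throughout, was the only one of the 6 to pass against day 0, and it was lower on days 5 to 10. It had 9.13, 0.944, 0.43, 5.19, 1.39 and 2.40 CPM in RepB and 7.93, 1.69, 1.18, 4.18, 1.55 and 3.14 CPM in WT. The change was log2 -1.89 ± 0.62 (SE, adjusted p = 0.0399), and it was outside the threshold without day 5 (0.0544) or day 8 (0.0933). Bmp7 rose by 0.32 ± 0.11 log2 units per day (SE, adjusted p = 0.0254), a slope that missed the threshold without day 5 (adjusted p = 0.305), day 6 (0.11) or day 8 (0.056). Bmp8b passed neither test, and its counts are uncertain because it has a close copy, Bmp8a.

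The ligands of the other branch moved in opposite directions. Tgfb1, a ligand of broad tissue expression and the most abundant of the 6 per kilobase, had 20.5, 10.0, 61.5, 136.4, 223.1 and 198.6 CPM in RepB and 19.8, 8.66, 60.7, 128.7, 203.4 and 247.1 CPM in WT. Tgfb2, which acts in heart and mesenchyme development, had 7.55, 4.34, 29.2, 125.3, 210.6 and 213.6 CPM in RepB and 8.11, 4.05, 22.8, 120.5, 240.1 and 275.2 CPM in WT. Both were at their lowest at day 5 and above 100 CPM from day 7 in each line. Their slopes were 0.80 ± 0.18 log2 units per day (SE, adjusted p = 0.00369) for Tgfb1 and 1.13 ± 0.24 log2 units per day (SE, adjusted p = 0.00243) for Tgfb2, and both passed in each of the 5 fits without 1 day. Tgfb3 also rose, at 0.61 ± 0.07 log2 units per day (SE, adjusted p = 8.76e-05), but reached only 22.2 CPM in RepB and 14.7 CPM in WT at day 10.

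Gdf3, a Nodal-related ligand expressed in ES cells, was the only member with a falling slope over days 5 to 10 that passed. It had 116.5, 100.2, 79.5, 20.8, 16.4 and 9.88 CPM in RepB and 113.1, 76.6, 46.1, 16.1, 10.3 and 5.39 CPM in WT. The slope was -0.75 ± 0.07 log2 units per day (SE, adjusted p = 2.53e-05), and it passed in each fit without 1 day. Negative slopes that did not pass were those of Fst (-0.43, adjusted p = 0.0885), Acvr2b (-0.12, adjusted p = 0.0688) and Grem1 (-0.08, adjusted p = 0.568). Inhbb, which encodes the beta B subunit of activins and inhibins, had 18.6, 0.566, 0.717, 0.677, 0 and 0.801 CPM in RepB and 13.3, 0.394, 0.347, 0.178, 0 and 0.98 CPM in WT. Its change against day 0 was log2 -4.97 ± 0.61 (SE, adjusted p = 0.000269), and both libraries of day 8 had 0 counts. Inhba, the beta A subunit, was at most 4.86 CPM in any library. It was lower on days 5 to 10 than at day 0, by log2 -1.57 ± 0.53 (SE, adjusted p = 0.0456), a change lost without day 5 (adjusted p = 0.0627), day 7 (0.0911) or day 8 (0.0853). Within days 5 to 10 Inhba rose, at 0.33 ± 0.10 log2 units per day (SE, adjusted p = 0.0223), a slope lost without day 10 (adjusted p = 0.291).

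The sum of the 10 feeder and fibroblast markers was 65.7 CPM in RepB and 82.5 CPM in WT at day 5. At day 0 it was 1039 CPM in RepB and 937.5 CPM in WT, so it was high at day 0 as well. The part of these markers in these changes was not tested. With day 5 in place of day 0 as the baseline, an alternative chosen after the marker values were seen, the log2 change of days 6 to 10 was 0.91 for Bmp6 (adjusted p = 0.48) and 0.53 for Inhba (adjusted p = 0.629), both opposite in sign to the change against day 0.

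The receptors were detected in every library. Bmpr1a, the main type I receptor for Bmp2 and Bmp4, had the highest level per kilobase of the 5 type I and III receptors and had 69.4, 109.7, 133.0, 151.7, 178.0 and 185.0 CPM in RepB and 97.2, 118.8, 126.9, 155.1, 169.3 and 206.5 CPM in WT. It was the only one of the 9 receptors to pass against day 0, with log2 0.96 ± 0.27 (SE, adjusted p = 0.0228), and its slope was 0.18 ± 0.02 log2 units per day (SE, adjusted p = 0.000101). Every value of days 5 to 10 lay above both values of day 0. The change against day 0 missed the threshold without day 7 (adjusted p = 0.0541). Acvr1b, the type I receptor of activin and Nodal, passed neither test and had 55.4, 36.4, 32.5, 42.2, 55.1 and 57.4 CPM in RepB and 64.6, 41.8, 43.9, 58.8, 32.1 and 54.2 CPM in WT.

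The receptors for TGF-beta ligands rose over days 5 to 10, with different courses. Tgfbr3 (betaglycan), the type III coreceptor that presents Tgfb2, had 12.9, 13.2, 15.1, 16.5, 66.8 and 248.0 CPM in RepB and 15.2, 11.5, 23.5, 18.1, 29.1 and 245.6 CPM in WT. It was below 25 CPM up to day 7 and then reached 248.0 CPM in RepB and 245.6 CPM in WT at day 10. Tgfbr2, the type II receptor for TGF-betas, had 6.70, 2.27, 5.88, 9.71, 23.4 and 67.3 CPM in RepB and 6.51, 2.53, 4.72, 8.28, 12.4 and 42.6 CPM in WT. The slopes were 0.90 ± 0.09 log2 units per day (SE, adjusted p = 2.55e-05) for Tgfbr3 and 0.89 ± 0.04 log2 units per day (SE, adjusted p = 6.8e-07) for Tgfbr2, and both passed in each fit without 1 day. Tgfbr1, their type I partner, rose more slowly, at 0.26 ± 0.03 log2 units per day (SE, adjusted p = 0.000133). Over the same days the fibroblast marker sum rose from day 5 to day 10 in both lines, and its part in the rise of these receptors was not tested.

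Of the 4 type II receptors, Tgfbr2 and Bmpr2 passed the slope test. Acvr2b, an activin receptor with the highest level per kilobase of the 4, had 39.4, 41.3, 39.1, 49.7, 28.9 and 25.4 CPM in RepB and 37.1, 47.8, 53.8, 60.8, 31.9 and 33.9 CPM in WT. Bmpr2, the BMP type II receptor, had 49, 45.7, 50.2, 69.5, 99.3 and 97.7 CPM in RepB and 54.8, 45.4, 57.9, 84, 52.2 and 116.3 CPM in WT. Its slope was 0.27 ± 0.05 log2 units per day (SE, adjusted p = 0.00127), and its values were highest at day 8 in RepB and at day 10 in WT. The WT value of day 8, 52.2 CPM, was lower than those of days 7 and 10. Bmpr2 has 11087 bases of exon, and genes of at least 4594 bases were low in that library. Acvr2a passed neither test.

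The SMADs that carry the signal were expressed throughout. Smad4, the partner of all receptor SMADs, was the most even of the 5 and had 133.5, 122.1, 134.6, 142.3, 152.2 and 140.7 CPM in RepB and 150.0, 136.4, 154.3, 152.5, 136.3 and 155.3 CPM in WT. Its log2 change against day 0 was 0.08 ± 0.13 (SE, adjusted p = 0.686). Smad1, which transmits BMP signals, was the only one of the 5 to pass against day 0, and had 24.6, 40.8, 96.5, 133.4, 86.8 and 58.5 CPM in RepB and 24.3, 45, 107.2, 157.2, 96 and 73.2 CPM in WT. It peaked at day 7 in both lines, and its lowest value over days 5 to 10, 40.8 CPM in RepB and 45.0 CPM in WT, exceeded the day 0 values of 24.6 and 24.3 CPM. The change was log2 1.93 ± 0.51 (SE, adjusted p = 0.0153) and passed in each fit without 1 day. Smad2, Smad3 and Smad5 rose by 0.20, 0.14 and 0.14 log2 units per day, with adjusted p of 0.00031, 0.00688 and 0.00266. The Smad3 slope missed the threshold without day 5 (adjusted p = 0.0667) and the Smad5 slope without day 10 (adjusted p = 0.283).

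The inhibitors had different courses. Smad6, which blocks the BMP branch and is itself a BMP target, had 12.4, 7.93, 27.2, 126.9, 183.6 and 126.8 CPM in RepB and 12, 11, 21.2, 98.5, 172.7 and 164.6 CPM in WT. Smad7, which blocks both branches, had 214.2, 92.3, 54.2, 96, 116.0 and 89.2 CPM in RepB and 170.3, 68.1, 49.2, 82, 110.8 and 107.8 CPM in WT. Bambi, a membrane pseudoreceptor without kinase activity, had 12.2, 9.25, 17.6, 52.6, 115.5 and 143.4 CPM in RepB and 12.7, 12.6, 15.1, 50.5, 119.8 and 182.5 CPM in WT. Smad6 and Bambi were under 30 CPM up to day 6 and over 100 CPM from day 8, with slopes of 0.86 ± 0.20 log2 units per day (SE, adjusted p = 0.00466) and 0.88 ± 0.10 log2 units per day (SE, adjusted p = 5.95e-05). The Smad6 slope missed the threshold without day 5 (adjusted p = 0.063). Smad7 was lower on days 5 to 10 than at day 0, by log2 -1.08 ± 0.29 (SE, adjusted p = 0.0184), with no overlap in either line, and its lowest value was at day 6. Its slope was 0.15 ± 0.06 log2 units per day (SE, adjusted p = 0.0538), just outside the threshold, and the changes of Smad6 and Bambi against day 0, log2 3.03 ± 1.31 (SE, adjusted p = 0.102) and 2.62 ± 1.27 (SE, adjusted p = 0.14), did not pass. Against day 5 the log2 change of Smad7 over days 6 to 10 was 0.21 (adjusted p = 0.716).

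The secreted antagonists had 3 different courses. Fst (follistatin), which binds activins, had 3.02, 96.8, 197.5, 35, 8.62 and 31 CPM in RepB and 2.72, 29.5, 193.7, 63, 24.2 and 34.7 CPM in WT. It was at its highest at day 6 in both lines and had fallen below 70 CPM by day 7. Its change against day 0 was log2 4.67 ± 1.31 (SE, adjusted p = 0.021) and passed in each fit without 1 day. Nog (noggin), which binds BMPs, had 1.77, 1.70, 16.1, 31.6, 27.8 and 25.4 CPM in RepB and 1.36, 0.844, 14.1, 32.9, 49.3 and 45.8 CPM in WT, and was under 2 CPM at days 0 and 5 and above 14 CPM from day 6. Its slope was 0.65 ± 0.23 log2 units per day (SE, adjusted p = 0.0359), and its change against day 0, log2 3.99 ± 1.40 (SE, adjusted p = 0.0509), was just outside the threshold. The slope was lost without day 5 (adjusted p = 0.0776), day 6 (0.0833) or day 8 (0.068).

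Grem1 (gremlin), a BMP antagonist of fibroblasts and mesenchyme, had 13.1, 2.64, 2.15, 1.35, 0.556 and 1.33 CPM in RepB and 13.1, 1.41, 0.625, 1.87, 1.67 and 1.08 CPM in WT. Both lines had 13.1 CPM at day 0 and no later value was above 2.64 CPM. The change was log2 -3.09 ± 0.38 (SE, adjusted p = 0.00028), and against day 5 it was -0.46 over days 6 to 10 (adjusted p = 0.567). The fibroblast marker sum was 13800 CPM in RepB and 9276 CPM in WT at day 10, and 1039 CPM in RepB and 937.5 CPM in WT at day 0. Its part in the level of Grem1 was not tested.

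All target genes but Id4 were higher at day 6 and on each later day than at day 0, in both lines, and 3 of the 6 passed against day 0. Id1, an inhibitor of basic helix-loop-helix factors and a direct BMP target, had 14.5, 30.2, 103.2, 125.3, 126.9 and 87 CPM in RepB and 12.6, 32.9, 87.9, 135.4, 203.3 and 108.2 CPM in WT. Its change was log2 3.00 ± 0.71 (SE, adjusted p = 0.00961), the smallest adjusted p among the members that rose. Against day 5 it was 2.01 over days 6 to 10 (adjusted p = 0.0303). Id3, another direct target, had 31.1, 26.8, 62.5, 165.7, 199.2 and 87.6 CPM in RepB and 20.6, 30.9, 65.2, 154.0, 299.9 and 145.5 CPM in WT, with a change of log2 2.30 ± 0.92 (SE, adjusted p = 0.0789) that missed the threshold and a slope of 0.49 ± 0.19 log2 units per day (SE, adjusted p = 0.0467). The Id3 slope was not called without day 5 (adjusted p = 0.495), day 6 (0.172) or day 8 (0.0821).

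Id2, whose protein also restrains helix-loop-helix factors, was highest at day 10 in both lines, whereas Id1 and Id3 were highest at day 8. Id1 and Id3 are short genes. In WT at day 8, genes with at most 1954 bases of exon stood a median log2 0.35 above the mean of days 7 and 10. In RepB that median was 0.0231. The part of this length pattern in the day 8 values of Id1 and Id3 was not tested. Id2 had 9.52, 31.3, 38.8, 65.7, 124.1 and 165.0 CPM in RepB and 12.4, 26.4, 34.9, 67.3, 145.3 and 195.5 CPM in WT. The change was log2 3.12 ± 0.96 (SE, adjusted p = 0.0305) and the slope 0.61 ± 0.06 log2 units per day (SE, adjusted p = 1.97e-05). The first missed the threshold without day 7 (adjusted p = 0.0571) or day 8 (0.0586). Id4 was highest at day 10, at 15.2 CPM in RepB and 23 CPM in WT, with a slope of 0.39 ± 0.06 log2 units per day (SE, adjusted p = 0.00041) and a change against day 0 of log2 0.15 ± 0.56 (SE, adjusted p = 0.857).

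Msx1 and Msx2, homeobox genes induced by BMPs in mesenchyme and neural crest, had nearly the same course. Msx1 had 4.60, 10.2, 66.3, 164.6, 201.4 and 78 CPM in RepB and 3.55, 5.57, 64.8, 164.3, 213.2 and 136.7 CPM in WT. Msx2 had 3.74, 4.91, 45.6, 230.8, 292.7 and 103.0 CPM in RepB and 4.09, 3.10, 30.5, 198.0, 281.3 and 172.6 CPM in WT. Both were under 11 CPM at days 0 and 5 and peaked at day 8 in both lines, when the trophoblast marker sum was also at its highest (2227 CPM in RepB and 2431 CPM in WT). The markers of that list did not move together. In the test against day 0, Krt8, Krt18 and Cdx2 passed as higher and Ascl2 as lower (log2 -1.73, adjusted p = 0.0432). Elf5 was not tested. The early mesoderm marker sum was highest at day 8 in RepB (1624 CPM) and at day 7 in WT (1532 CPM). The part of the cells behind either sum in the course of Msx1 and Msx2 was not tested. The change of Msx1 was log2 4.83 ± 1.43 (SE, adjusted p = 0.0265), lost without day 7 (adjusted p = 0.0587), and that of Msx2 was log2 5.20 ± 1.85 (SE, adjusted p = 0.0534).

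**Figure D2:**
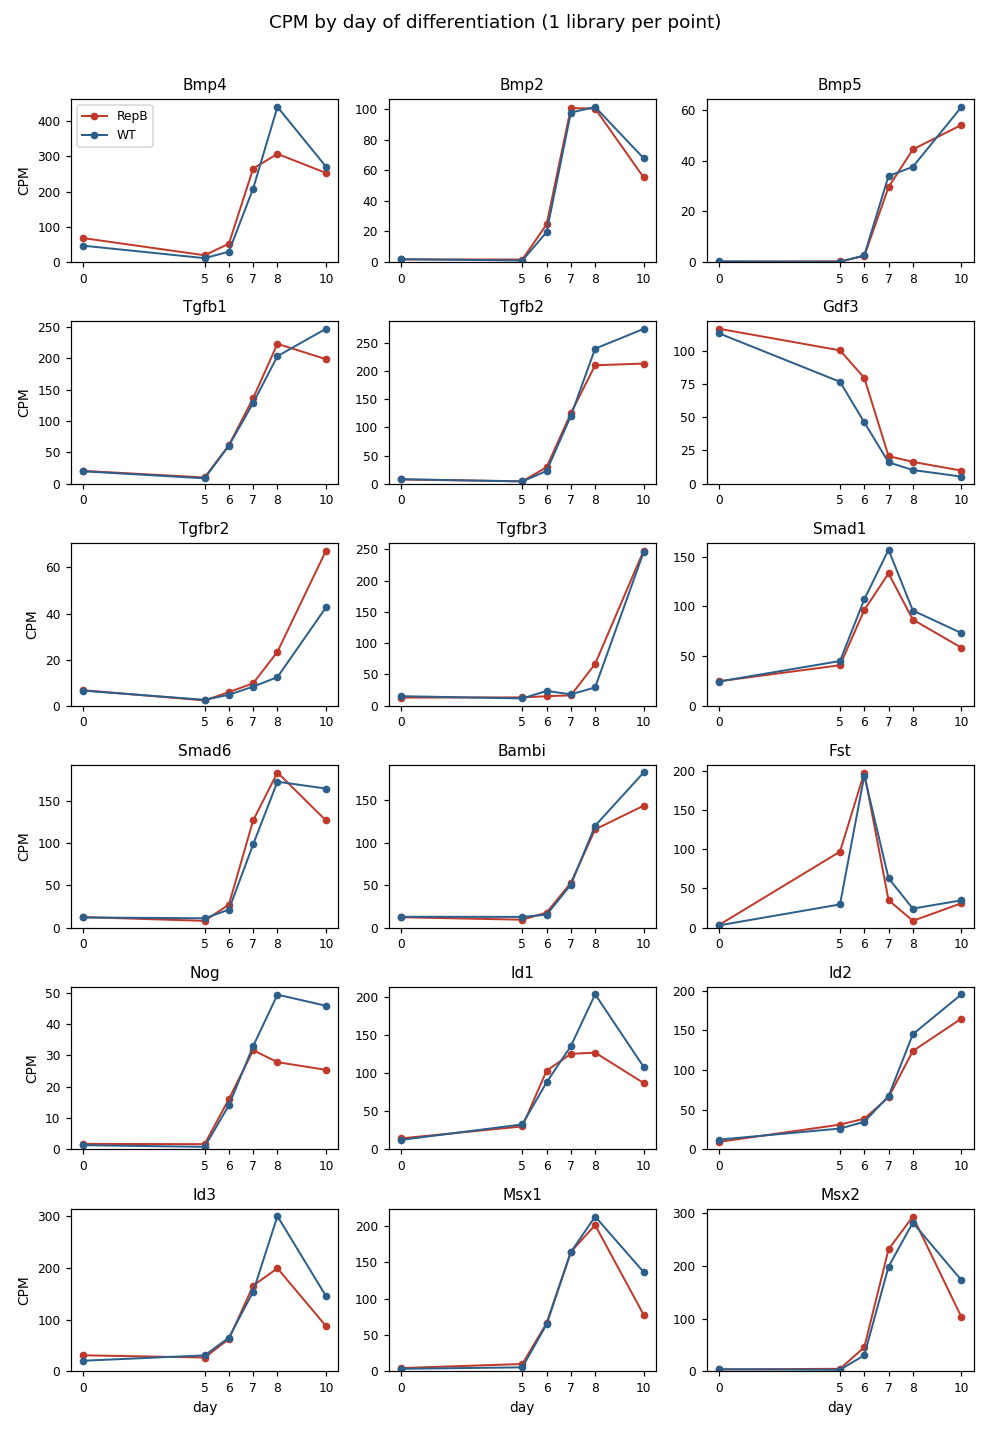
CPM (vertical axis, starting at 0) of 18 members by day of differentiation (horizontal axis), RepB in red and WT in blue, 1 library per point. Bmp2, Bmp4, Bmp5, Tgfb1, Tgfb2, Smad6, Nog, Msx1 and Msx2 are near their lowest at day 5 and far higher from day 7, Gdf3 falls throughout, and Fst reaches 197.5 CPM in RepB and 193.7 CPM in WT at day 6 alone.

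**Figure D3:**
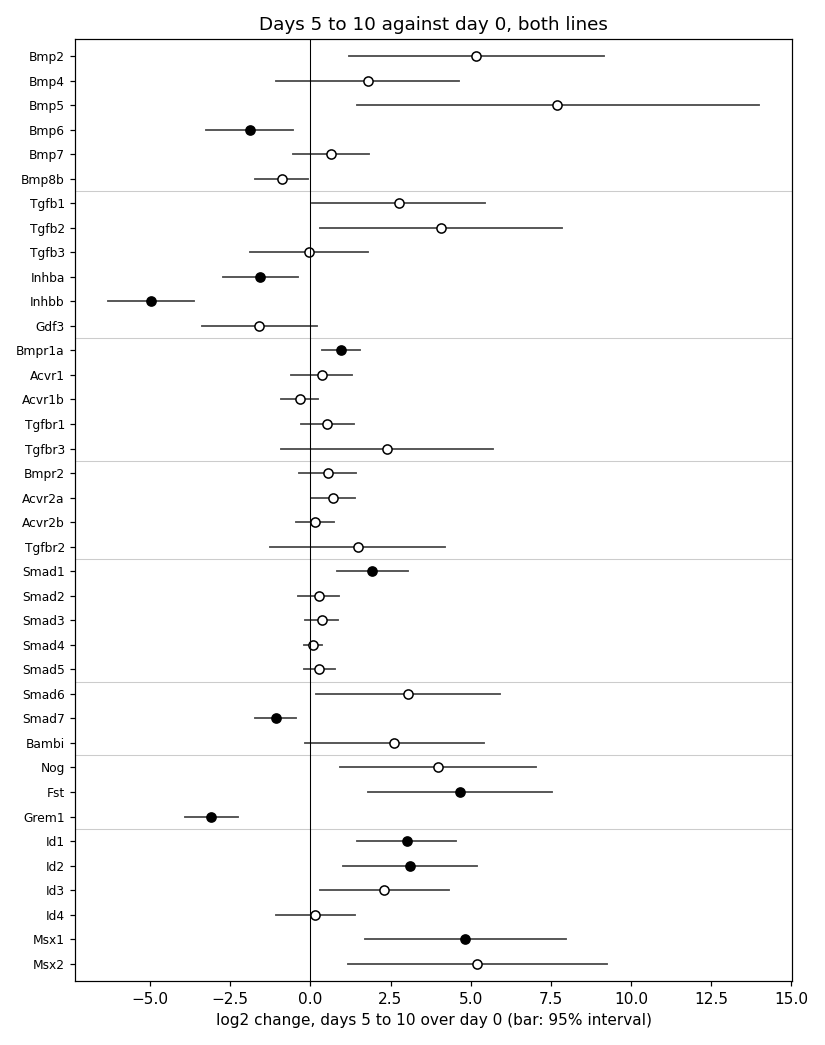
Fitted log2 change of days 5 to 10 over day 0 for each member, both lines together, with 95% intervals. Filled circles passed an adjusted p of 0.05 over all genes and open circles did not. The 6 filled circles above 0 are Bmpr1a, Smad1, Fst, Id1, Id2 and Msx1, and the 5 below are Bmp6, Inhba, Inhbb, Smad7 and Grem1. The Bmp5 interval rests on 1 and 3 counts at day 0.

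RepB and WT cells were then compared over days 5 to 10, with day as a factor so that libraries of the same day were set against each other. Of 38 members 1 passed, Gdf3, where 2.28% of 15179 genes passed (1.51% higher and 0.771% lower in RepB). Without adjustment 5 members had p under 0.05, where 15.0% of all genes did. The median log2 RepB/WT of the members was -0.01, that of all genes -0.00, and the fitted values ran from -0.30 (Nog) to 0.63 (Inhbb). The 95% intervals had a median half-width of 0.267, and for 35 of 38 members the whole interval lay within 1 log2 unit of 0 on both sides. The exceptions were Inhba, Inhbb and Grem1, whose counts were low.

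Gdf3 was higher in RepB on 5 of 5 days. Its CPM at days 5, 6, 7, 8 and 10 was 100.2, 79.5, 20.8, 16.4 and 9.88 in RepB and 76.6, 46.1, 16.1, 10.3 and 5.39 in WT, while at day 0 it was 116.5 CPM in RepB and 113.1 CPM in WT. The fitted difference was log2 0.61 ± 0.11 (SE, adjusted p = 0.0159). Less the difference at day 0 it was log2 0.50 ± 0.23 (SE), which did not pass (adjusted p = 0.563). The call was lost without day 6 (adjusted p = 0.107), day 7 (0.0639) or day 10 (0.0583). The ES cell marker sum was also higher in RepB on each day, 2735, 1988, 848.3, 463.8 and 339.3 CPM against 2077, 1559, 640.5, 366.6 and 206.7 CPM in WT, and 3 of those 5 markers (Esrrb, Nanog and Zfp42) passed in the same test. The part of that difference in the result for Gdf3 was not tested.

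The other members with an unadjusted p under 0.05 did not pass the adjustment. They were Tgfbr2 at log2 0.52 ± 0.16 (SE, adjusted p = 0.139), Acvr2b at -0.29 ± 0.10 (SE, adjusted p = 0.169), Bmp7 at -0.28 ± 0.11 (SE, adjusted p = 0.225) and Id3 at -0.27 ± 0.12 (SE, adjusted p = 0.299). Acvr2b was lower in RepB on 5 of 5 days. It passed when day 8 was left out (log2 -0.34, adjusted p = 0.0494) and in no other alternative. Without day 6 its adjusted p was 0.484. Acvr2a and Smad1 were also lower in RepB on all 5 days, at log2 -0.19 ± 0.10 (SE, adjusted p = 0.401) and -0.18 ± 0.08 (SE, adjusted p = 0.337). The remaining 34 members changed sign between days.

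By role, 0 of 6 BMP ligands, 1 of 6 activin, GDF and TGF-beta ligands, 0 of 9 receptors, 0 of 5 signal-carrying SMADs, 0 of 3 inhibitors, 0 of 3 secreted antagonists and 0 of 6 targets passed between the lines. On single days, with a pseudocount of 0.5 CPM, 0 members differed by more than 1 log2 unit at days 0, 7 and 10, 1 at day 5 (Fst, 1.70), 1 at day 6 (Grem1, 1.24) and 3 at day 8 (Tgfbr3 at 1.18, Fst at -1.44 and Grem1). Fst thus stood higher in RepB at day 5, at 96.8 CPM against 29.5 CPM in WT, and lower at days 7 and 8, at 35 and 8.62 CPM in RepB against 63.0 and 24.2 CPM in WT. With 1 library a day these daily differences have no replicate check. The share of all genes beyond 1 log2 unit was not computed, so these counts have no background beside them. Day 8 also held the WT library that stood apart by the length of genes. The median log2 RepB/WT of the members was -0.20 at day 10, when 9 of 38 were above 0, and between -0.04 and 0.07 on the other days. Over all genes, the medians of 4 classes by exon length lay between -0.06 and -0.00 at day 10.

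**Figure D4:**
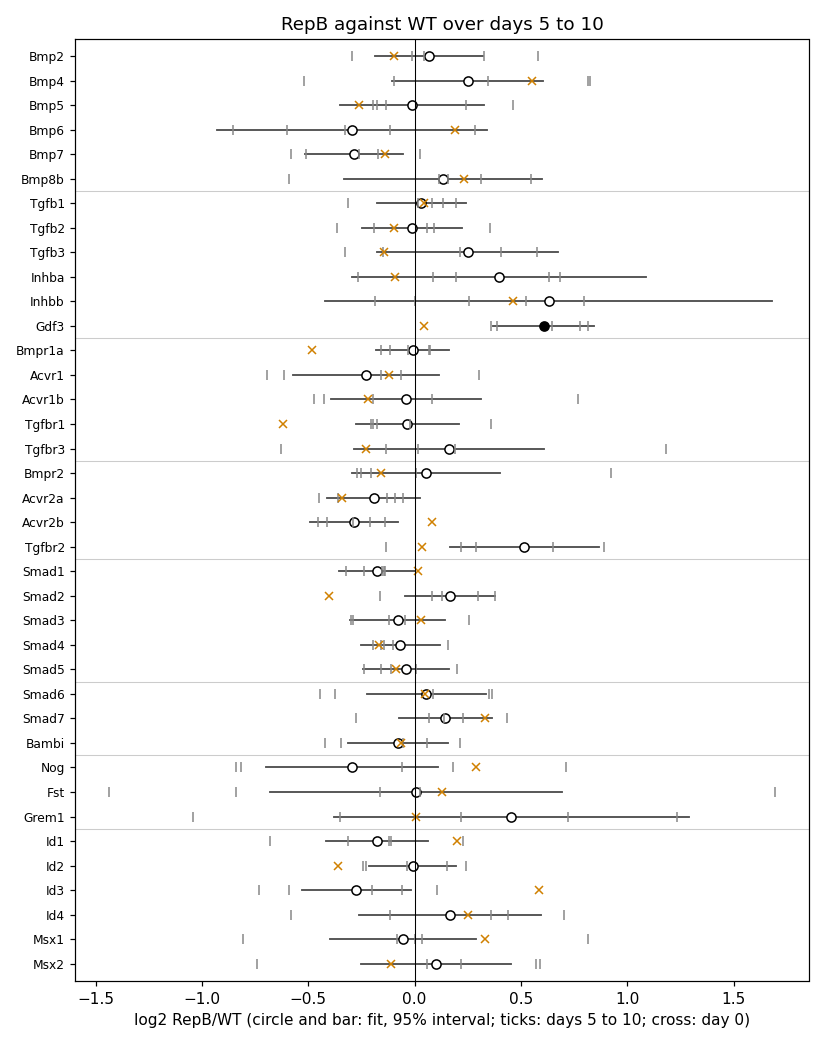
Log2 RepB/WT of each member. Circles and bars are the fit over days 5 to 10 with its 95% interval, grey ticks are the single days 5, 6, 7, 8 and 10, and crosses are day 0. Gdf3, the filled circle, is the member that passed. Most circles lie within 0.3 of the line at 0, and the widest spread of ticks is that of Fst, from -1.44 at day 8 to 1.70 at day 5.

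The difference between the lines was also compared with that at day 0. Here 0 of 38 members passed, where 0.0329% of all genes did (5 of 15179, of which 0.0198% higher and 0.0132% lower), and 1 member, Id3, had an unadjusted p under 0.05, where 8.86% of genes did. DESeq2 likewise called 0 members. Id3 was at 87.6 CPM in RepB and 145.5 CPM in WT at day 10, and at 31.1 CPM in RepB and 20.6 CPM in WT at day 0, and its difference less that at day 0 was log2 -0.93 ± 0.29 (SE, adjusted p = 0.391). In the test of a difference of slopes over days 5 to 10, 0 of 37 members and 0.0% of 12948 genes passed with edgeR, and 0 members with DESeq2. Without adjustment 1 member, Id4, had p under 0.05 (log2 -0.27 ± 0.10 per day, SE), where 1.54% of genes did.

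Another 58 genes, listed by their known place in the same pathways, were examined beside the members, and 49 of them were tested. Between the lines 4 passed, 8.16%, where 2.28% of all genes did, with 3 higher (1.51% of all genes) and 1 lower (0.771%) in RepB. Lefty2 and Lefty1, secreted inhibitors of Nodal that Nodal itself induces, were higher, at log2 0.88 ± 0.10 (SE, adjusted p = 0.00327) and 0.48 ± 0.10 (SE, adjusted p = 0.0255). Eng (endoglin), a coreceptor of endothelial and mesenchymal cells, was higher at log2 0.74 ± 0.09 (SE, adjusted p = 0.00435). Rgma, a BMP coreceptor of neural tissue, was lower at log2 -0.65 ± 0.13 (SE, adjusted p = 0.0242). Markers of several cell types differed between the lines in the same test. Of 6 neural ectoderm markers 4 were lower in RepB (Sox1 at log2 -2.68, Lhx2 at -1.91, Pax6 at -1.83 and Map2 at -0.64). Of the markers of visceral endoderm 3 of 6 were higher in RepB (Ttr, Apob and Apoa1), and of those of fibroblasts 2 of 10 (Col3a1 at log2 1.04 and Postn at 1.35), besides the 3 of 5 ES cell markers. In the edgeR test 0 markers passed of early mesoderm (1 of 6 tested at an unadjusted p under 0.05), cardiac muscle (2 of 5), smooth muscle (2 of 4) and trophoblast (1 of 4). The part of these cell types in the results for Lefty1, Lefty2, Eng and Rgma was not tested.

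Lefty2 had 529.0, 301.8, 311.3, 85.1, 52.6 and 44.6 CPM in RepB and 396.7, 191.0, 168.6, 56.1, 27.6 and 17.8 CPM in WT. It was higher in RepB in all 6 pairs of libraries, day 0 included, and less the difference at day 0 it was log2 0.40 ± 0.24 (SE, adjusted p = 0.651). Lefty2 and Eng passed in each fit without 1 day. Of the fits without 1 day, Lefty1 passed without day 8 and not in the other 4, where its highest adjusted p was 0.183 (without day 6). Rgma passed without day 8 or day 10 and not in the other 3, where its highest adjusted p was 0.129 (without day 7). Nodal, at log2 0.33 (adjusted p = 0.164), and its coreceptor Tdgf1, at log2 0.19 (adjusted p = 0.479), did not pass between the lines.

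Over the course, 12 of these 49 genes passed against day 0, 24.5%, where 29.2% of all genes did, with 1 higher and 11 lower. The higher one was Cer1, an inhibitor of Nodal and BMPs, at 0.0657 CPM in RepB and 0 CPM in WT at day 0, so no size of its change is read. In the slope test 16 of 44 rose, 36.4%, and 10 fell, 22.7%, where 27.9% of all genes rose and 26.6% fell. The 4 genes of the Nodal branch named here fell, Lefty1 by -0.90, Tdgf1 by -0.94, Nodal by -0.76 and Lefty2 by -0.68 log2 units per day, each with an adjusted p of 0.000121 or less. Nodal itself had 80.8, 139.3, 154.5, 54.6, 22 and 13.1 CPM in RepB and 76.4, 90.5, 119.9, 52.5, 23.2 and 9.12 CPM in WT, and it was highest at day 6 in both lines. Gdf3 fell over the same days.

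Reads over strain variants had been assigned by the authors to alleles named cas and mus. The cas share of allelic counts was available for 35 members at 10 or more counts in at least 1 library. Large parts of the genome of these cells carried counts of 1 allele only. By the genes within 5 Mb, 16 members lay in regions where most neighbours had both alleles. The median cas share of the neighbours of the other 22 was under 5%. Bmp4 (cas share 1.59% of 4652 allelic counts over days 5 to 10), Gdf3 (0.155% of 1935), Id1 (0.185% of 542) and Smad4 (0.678% of 1180) were among these 22. Acvr2b (49.5%), Nog (41.4%) and Msx1 (56.9%) had both alleles themselves and lay in mixed regions, where 42.4%, 17.8% and 41.3% of neighbours had a cas share between 25% and 75% over days 5 to 10.

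In regions with both alleles, 14 members had a share at both stages, with both lines summed and at least 20 counts. Over days 5 to 10 most were near an even share, as Fst at 54.1%, Smad3 at 47.8%, Msx2 at 46.9% and Tgfbr3 at 48.4%. Smad1 was at 59.5%, and the median of its 55 neighbours was 65.2%. At day 0, 5 of the 14 were under 35% cas, and over days 5 to 10 1 was, Inhba. The share of all genes under 35% was not counted, so these counts have no background beside them. Tgfb1 was at 42.1% of 1732 counts over days 5 to 10 and 12.6% at day 0 (15 cas counts), with neighbours at a median of 49.4% and 48.4%. Smad6 was at 49.8% of 1256 counts over days 5 to 10 and 25.9% of 85 at day 0.

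The difference between stages was seen in each line where counts allowed. For Tgfb1 the exact 95% intervals were 38.7% to 47.8% in RepB and 39.0% to 44.5% in WT over days 5 to 10, and 7.48% to 27.9% in RepB and 3.64% to 19.9% in WT at day 0. For Smad6 they were 43.5% to 53.4% in RepB and 47.0% to 53.9% in WT over days 5 to 10, and 11.8% to 41.2% in RepB and 15.3% to 41.9% in WT at day 0. With days 5 to 10 summed, the intervals of the stages did not overlap within either line in these 2 genes, and those of RepB and WT overlapped within each stage. The sums give most weight to the later days, which held most counts. In single libraries the cas share of Tgfb1 in RepB over days 6, 7, 8 and 10 was 25% (15.8% to 36.3%), 36.1%, 42.7% and 59.2%. In WT, over days 5, 6, 7, 8 and 10, it was 28% (12.1% to 49.4%), 34.4%, 33.8%, 48.6% and 45.0%. The interval of the first of these libraries overlapped that of day 0 in each line, and so did that of day 7 in RepB (27.1% to 45.9%). The Smad6 intervals of days 5 and 6 in both lines, and of day 7 in RepB, overlapped those of day 0. Fst (54.1% over days 5 to 10 and 8% of 25 counts at day 0), Tgfbr2 (52.7% and 25% of 24) and Id4 (44.4% and 29.4% of 34) had few counts at day 0. Inhba was at 24% of 25 counts over days 5 to 10 and 55.8% of 43 at day 0. These intervals cover counting error only. Day 0 cells had been grown on feeders, and the feeder marker sum was high then; its part in the shares was not tested.

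**Figure D5:**
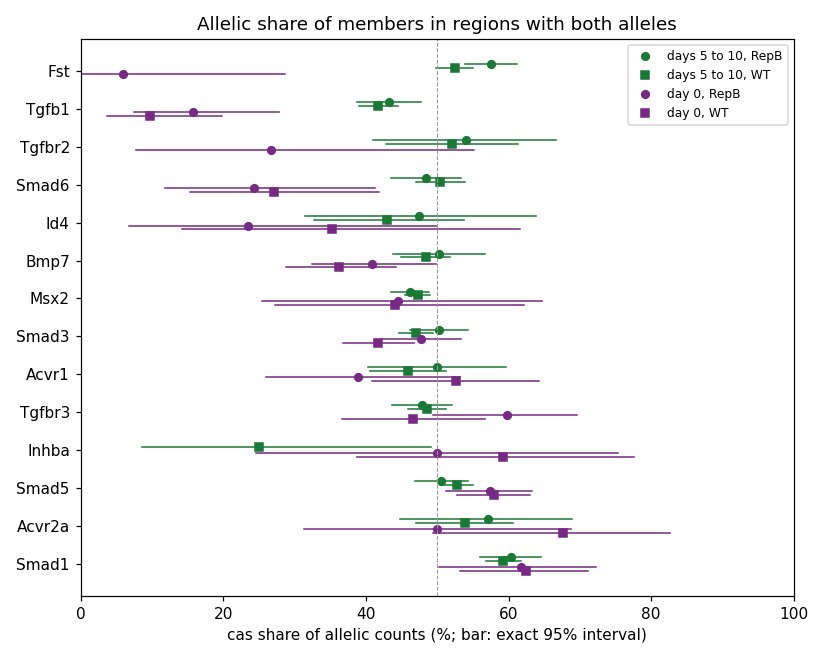
Cas share of allelic counts (percent, with exact 95% intervals) for the 14 members in regions with both alleles, ordered from the lowest to the highest share at day 0. Green is days 5 to 10 and purple day 0, circles are RepB and squares WT, and the dashed line marks 50%. Shares with fewer than 10 counts in a line are not drawn. At day 0 Fst, Tgfb1, Tgfbr2, Smad6 and Id4 lie left of their values over days 5 to 10.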

How the data were processed

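PolyA RNA was sequenced from RepB and WT ES cells, 1 library per line and day, 12 in all. The deposited table holds counts per gene, not normalized by the authors, with separate counts for reads assigned to the cas and mus alleles. Another deposited column gives exon length per gene, in bases. The submitters' processing notes list, with no versions, featureCounts, bedtools, SAMtools, TopHat, Novoalign and the build mm9. The kit was directional, per the labels' protocols, but the strand setting of the counting is not given in the sources used here, so genes that overlap on opposite strands cannot be told apart. Columns of another day that matched no RNA sample (6 in number) were not used, and 2 gene names were duplicated.

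Library totals were 3594551 to 17773138 counts, of which 25.5% to 26.7% were allelic. Levels are CPM on the total count, and RPKM divides these by the deposited exon length. Tests used edgeR 4.0.16 in R 4.3.3 (TMM, filterByExpr on line-by-stage groups, quasi-likelihood F test) with Benjamini-Hochberg adjustment over all genes at 0.05. The fit of RepB against WT had day as a factor (4 residual degrees of freedom, coefficient of variation 12.2%). The fit against day 0 had line only (9 degrees, 44.0%), so its spread is that between days, and the slope fits used days 5 to 10 (7 and 6 degrees). Only the fits were tried on simulated counts, all at a spread near that of the RepB against WT fit. The trial thus does not cover the larger spread of the fit against day 0 or of the slope fits. Allelic shares have exact Clopper-Pearson 95% intervals, which, like the floor of 3 counts, cover counting error only.

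The members, gene lists and marker lists were chosen with earlier results of these data known. Described in full are members past the threshold between the lines, up to 8 with the largest changes against day 0, up to 6 with the steepest slopes, and the 2 highest per kilobase in each role, and others were added for contrast. Alternatives were DESeq2 1.42.0, its size factors, no low-count filter, thinning to 3594551 counts, leaving out each day, other model terms, each line alone and, added after seeing the data, day 5 as baseline.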

Additional observations from a re-analysis of the deposited data

Results flagged for a closer look

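In 2 of 38 members 1 daily log2 RepB/WT ratio lay far from the other 4, by Dixon's ratio at 95%, which chance alone passes in about 1 in 20 sets. Both ratios were those of day 8. Bmpr2, the BMP type II receptor, stood at a day 8 ratio of log2 0.922, with 99.3 CPM in RepB and 52.2 CPM in WT, and with 0.05 ± 0.16 (SE) in the fit over all 5 days. Smad4 had 0.159 at day 8, with 152.2 CPM in RepB and 136.3 CPM in WT, and was below 0 on the other 4 days. At day 8 the median log2 RepB/WT of all genes ran between -0.32 in genes with at most 1954 bases of exon and 0.215 in those with at least 4594 bases. Bmpr2 has 11087 bases of exon, and Smad4 has 3341. The part of this length pattern in either ratio was not tested.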

How the results depend on the processing

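Between the lines, the single member called (Gdf3) became 0 when counts were thinned to equal depth, without the day term, or with 1 RepB effect over all 6 days, and 0 to 2 members were called without single days. Over all genes that count moved between 0 and 744 around 346. The 11 members called against day 0 became 21 with DESeq2, 29 with day as a factor and 6 with day 5 as the baseline. Without single days they became 7 (without day 7) to 19 (without day 5). Over all genes 4439 were called against day 0, 3107 to 5192 without single days and at most 9724 in any alternative. With WT or RepB alone day 0 was a single library, so no count is given for those fits. Taking day 5 as the baseline turned the sign of Inhba (0.53), Bmp6 (0.91) and Smad7 (0.21). The 23 members called for slope became 14 in WT alone and 18 to 27 without single days, and 12 were called in all 11 alternatives. Over all genes 7056 were called for slope, and 5094 to 7443 without single days. For the single genes named, the alternatives between the lines kept the side of the threshold 78 times, lost the call 20 times and gained it 1 time. For slope they kept it 218 times and lost it 27 times. The tally against day 0 is not given, because it includes the fits of WT or RepB alone. Why these counts moved was not tested, and the single-line and leave-out fits also had fewer libraries. Allelic shares were available for 35 members at a minimum of 10 counts and of 20. The difference less day 0 and the difference of slopes called 0 members in every alternative run. Few counts limit Bmp5 at days 0 and 5 in both lines, and Bmp6, Inhbb and Grem1 over days 5 to 10, most of all in RepB.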
